A study of Homo sapiens with 4 samples.

Results

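The interleukin-1 family of cytokines was examined in untreated HaCaT cells, an immortalised line of human skin keratinocytes. The 10 genes were taken by their symbols and comprised the ligands IL1A, IL1B, IL18, IL33 and IL36G, the antagonists IL1RN and IL36RN, the receptors IL1R1 and IL1R2 and the accessory chain IL1RAP. All 10 were found among the 44591 rows of the gene tables, of which 19233 were protein-coding. RNA-seq of total RNA had been performed on 4 biological replicates of the line, kept per the labels in Dulbecco's modified Eagle medium with 12% fetal bovine serum (the study's methods give another share) and given no treatment. There was 1 condition and no comparison group, so the values describe levels in this line and their spread over the 4 replicates. The labels do not say whether the replicates were grown as separate cultures, and any p-value below measures only the spread between these samples. An immortalised line in culture has no immune cells or dermis around it.

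Interleukin-1 cytokines are alarm signals that epithelial cells store and release on injury or infection. Interleukin-1 alpha and interleukin-1 beta bind the receptor IL1R1, which then recruits IL1RAP and signals through the adaptor MYD88 to NF-kappaB. The receptor antagonist IL1RN occupies IL1R1 without recruiting IL1RAP, and IL1R2 is a decoy that binds ligand but has no signalling domain. In skin, keratinocytes are known as a large reservoir of interleukin-1 alpha, and the balance of agonist and antagonist is a well known feature of epidermal inflammation.

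Levels are given as TPM, the count of a gene divided by its length and scaled to a total of 1000000 over the protein-coding genes of each replicate, from the deposited counts and gene lengths, so that levels of different genes are compared per length. Total counts were 73082279 in replicate 1 and between 17056035 and 19745170 in replicates 2 to 4. Replicate 1 stood apart from the others. Protein-coding rows made up 76.1% of its counts, whereas they made up 95.3% to 96.4% elsewhere. Its rank correlation with the others across the 12165 detected genes was 0.754 to 0.780, against 0.944 to 0.967 among replicates 2 to 4 (Spearman, across genes, which are not independent replicates). Results are therefore given with and without replicate 1. All 8 keratinocyte markers were detected, with KRT14 between 6375 and 7642 TPM. These genes mark the cell type and do not tell the HaCaT line from other keratinocytes. Of the markers of other cell types, 1 of 8 myeloid, 2 of 7 fibroblast, 0 of 5 endothelial and 1 of 4 melanocyte genes were detected. The 8 myeloid markers summed to between 3.89 and 9.44 TPM, and the myeloid genes TYROBP and AIF1 had no count in any replicate.

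A gene was called detected when its mean over the 4 replicates was above 1 TPM. By this limit 7 of the 10 members were detected, a share of 70.0% beside 63.3% of all protein-coding genes. IL18 had the highest mean and was followed by IL1RN, IL1B, IL1RAP, IL1A, IL1R1 and IL1R2, while IL36G, IL36RN and IL33 stayed below the limit. Between neighbours in this order, 7 of 9 pairs had overlapping ranges and 4 of 9 kept their order in every replicate. The step from IL18 to IL1RN was one that did not overlap, at 2.04 ± 0.77 (SD, n = 4) on the log2(TPM + 1) scale. The other was the step from IL36RN to IL33, at 0.55 ± 0.34 on the same scale. Both of these genes lay below the limit. In replicate 1 their 95% counting intervals overlapped, at 0.191 to 0.471 TPM for IL36RN and 0.122 to 0.361 TPM for IL33. In bulk RNA, fewer cells that express a gene and less RNA per cell cannot be told apart.

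**Figure D1:**
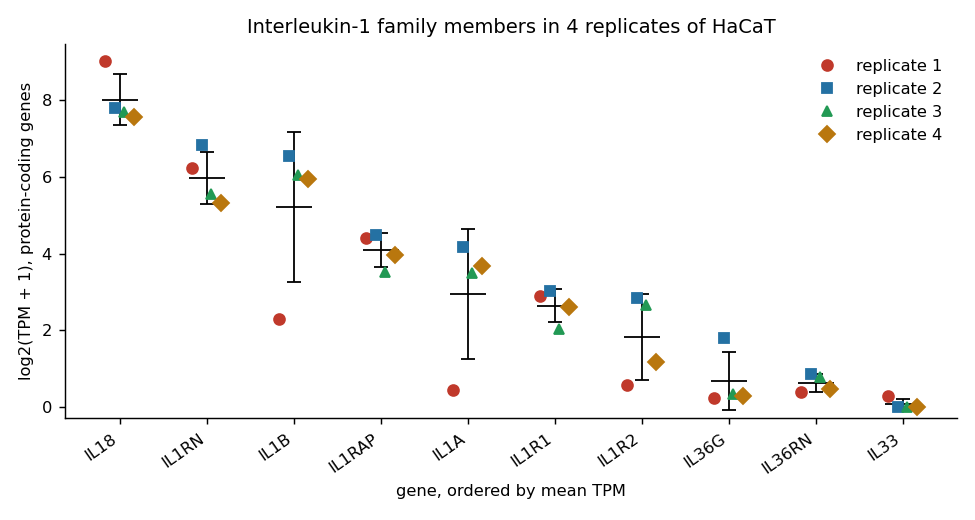
Levels of the 10 members as log2(TPM + 1) over protein-coding genes (vertical axis), with 1 symbol per replicate and the mean ± SD of the 4 log2 values as bars. IL18 stands highest in every replicate, and replicate 1 lies far below the others for IL1B (3.93 TPM) and IL1A (0.365 TPM).

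Interleukin-18 is made as an inactive precursor that caspase-1 cleaves, and it is known to be held in keratinocytes. IL18 (gene ID 3606, chr11:112013974-112034840, minus strand, in the hg19 positions of the files) was at 514.4, 219.3, 206.8 and 188.5 TPM in replicates 1 to 4. Replicate 1 was far above the other 3, which lay close together. The mean was 282.3 ± 155.3 TPM (SD, n = 4), higher than 97.4% of protein-coding genes, and 204.9 ± 15.5 TPM without replicate 1. It had the highest level of the 10 members in all 4 replicates. Replicate 1 exceeded the mean of the other 3 by 1.33 on the log2(TPM + 1) scale, and 90.1% of detected genes had a lower difference. When TPM was scaled over all rows instead of protein-coding rows, that direction turned, with IL18 at 159.2 TPM in replicate 1 and 175.3 to 194.3 TPM in the others. Under that scaling the share of TPM in protein-coding rows was 31.0% in replicate 1 and 87.4% to 93.0% in replicates 2 to 4, and the median detected gene in replicate 1 moved from 0.03 to -1.27 on the log2 scale.

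Interleukin-1 beta, the classical secreted agonist, showed the opposite pattern. IL1B (gene ID 3553, chr2:113587337-113594356, minus strand) was at 3.93, 92.9, 64.8 and 61.1 TPM in the same order. The first of these rested on 143 counts and had a 95% counting interval of 3.31 to 4.63 TPM, so it lay far outside the values of the other replicates. The mean was 55.7 ± 37.3 TPM (SD, n = 4), and 72.9 ± 17.4 TPM without replicate 1. In replicates 2 to 4 the gene ranked above 84.8% to 89.9% of protein-coding genes, and in replicate 1 above 46.5%.

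Interleukin-1 alpha is active without cleavage and acts as a danger signal when cells rupture. IL1A (gene ID 3552, chr2:113531492-113542975, minus strand) was at 0.365, 16.9, 10.2 and 11.7 TPM. Here too replicate 1 lay far below the others, on 26 counts with an interval of 0.238 to 0.535 TPM. The mean was 9.81 ± 6.92 TPM (SD, n = 4) and 12.95 ± 3.53 TPM without replicate 1. With the union of annotated exons in GENCODE 29 as gene length the mean was 21.1 TPM. That length was 2124 bp for IL1A against 2932 bp as deposited, whereas over all protein-coding genes it was longer than deposited (median ratio 1.27), so the rescaled total raised the level further.

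The other ligands were scarce. IL33, a nuclear alarmin of barrier cells, had 15 counts in replicate 1 and 0 counts in replicates 2, 3 and 4. Replicate 1 was thus at 0.219 TPM, and a count of 0 had upper 95% limits of 0.197, 0.145 and 0.175 TPM in replicates 2 to 4. The floor of 3 counts lay at 0.160, 0.118 and 0.143 TPM there. IL36G, which in skin is induced by inflammation, was at 0.170, 2.48, 0.275 and 0.221 TPM in replicates 1 to 4, on 5, 20, 3 and 2 counts. Replicate 2 stood above the rest, whose counting intervals reached from 0.0268 to 0.805 TPM. IL33 (gene ID 90865) lies at chr9:6215149-6257983 on the plus strand and IL36G (gene ID 56300) at chr2:113735596-113743249 on the plus strand.

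The receptor antagonist was among the more abundant members. IL1RN (gene ID 3557, chr2:113875470-113891593, plus strand) was at 74.0, 111.8, 45.8 and 38.6 TPM. Replicate 1 fell within the range of the other 3, unlike its position for IL1A and IL1B. With TPM over all rows it lay below them, at 22.9 TPM against 35.9 to 99.1 TPM. The mean was 67.5 ± 33.2 TPM (SD, n = 4), and 65.4 ± 40.4 TPM without replicate 1. IL1RN is transcribed from separate starts into a secreted and an intracellular form, and a count per gene does not separate them. The antagonist of interleukin-36 receptors, IL36RN (gene ID 26525, chr2:113816215-113822321, plus strand), was at 0.308, 0.805, 0.715 and 0.383 TPM, on 21, 15, 18 and 8 counts, and the counting intervals of its lowest and highest replicates met (0.191 to 0.471 and 0.451 to 1.33 TPM).

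Of the receptors, the accessory chain was the most abundant. IL1RAP (gene ID 3556, chr3:190231840-190374986, plus strand) was at 20.3, 21.4, 10.5 and 14.5 TPM in replicates 1 to 4, with a mean of 16.7 ± 5.11 TPM (SD, n = 4). The signalling receptor IL1R1 (gene ID 3554, chr2:102686836-102796334, plus strand) was at 6.48, 7.14, 3.11 and 5.07 TPM, with a mean of 5.45 ± 1.78 TPM. For both genes replicates 1 and 2 were the highest and replicate 3 the lowest. The decoy IL1R2 (gene ID 7850, chr2:102608306-102644885, plus strand) followed another order, at 0.484, 6.19, 5.37 and 1.26 TPM on 20, 70, 82 and 16 counts. Its replicates 2 and 3 were high and its replicates 1 and 4 low, with counting intervals of 4.27 to 7.83 TPM for the high pair and 0.296 to 2.05 TPM for the low pair. The list of 15 interferon-induced genes had a median of 302.4 and 334.2 TPM in replicates 2 and 3 and of 15.6 and 20.8 TPM in replicates 1 and 4, and its part in the spread of IL1R2 was not tested.

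Of the 10 members, 3 overlapped another row of the tables, and none of those rows was protein-coding. A pseudogene on the same strand within IL1RAP, RN7SKP296, took 7, 5, 0 and 0 counts. The overlapping rows at IL1R1 and IL36G had no counts.

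The balance between ligands, antagonists and receptors was then compared within each replicate for 8 pairs of genes. Differences were taken as log2(TPM + 1) and tested with a two-sided exact sign-flip permutation test, which with 4 replicates cannot go below p = 0.13 and so cannot pass 0.05. Ratios of counts per kilobase are given with 95% intervals (exact, Clopper-Pearson). Because the reads carried no molecular identifiers, these and all other intervals account for counting error alone.

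Antagonist exceeded alpha agonist in 4 of 4 replicates. IL1RN was above IL1A by 203-fold (138 to 311), 6.61-fold (5.86 to 7.46), 4.49-fold (3.91 to 5.16) and 3.29-fold (2.84 to 3.82) in replicates 1 to 4. The mean difference was 3.03 ± 1.88 (SD, n = 4, log2 scale, exact permutation p = 0.13, adjusted p = 0.2), and 2.12 without replicate 1. Against IL1B there was no common direction. IL1RN was 18.8-fold above IL1B in replicate 1 (15.9 to 22.4) and 1.20-fold in replicate 2 (1.11 to 1.31), but lay below it in replicate 3 (ratio 0.707, 0.643 to 0.778) and in replicate 4 (ratio 0.631, 0.565 to 0.705). With exon lengths the ratio in replicate 3 was 0.949 (0.863 to 1.04) and no longer separable from 1, and in replicate 4 it was 0.846 (0.757 to 0.945). The mean difference was 0.76 ± 2.15 (log2 scale, n = 4, exact permutation p = 0.875, adjusted p = 1), and it turned to -0.29 without replicate 1.

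Taken as a sum of IL1A and IL1B, the agonists were at 4.29 TPM in replicate 1 and at 109.8, 75.0 and 72.8 TPM in replicates 2 to 4. IL1RN over this sum was 17.2, 1.02, 0.611 and 0.529. Thus antagonist transcripts outnumbered agonist transcripts in replicate 1, were close to them in replicate 2 and were fewer in replicates 3 and 4. The agonists made up 5.48%, 49.5%, 62.1% and 65.4% of agonists and antagonist together.

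Within the agonists, IL1B was higher than IL1A in 4 of 4 replicates. The ratio of IL1A to IL1B was 0.0929 (0.0587 to 0.142), 0.182 (0.160 to 0.207), 0.158 (0.137 to 0.181) and 0.192 (0.165 to 0.222). The mean difference was -2.27 ± 0.30 (log2 scale, n = 4, exact permutation p = 0.13, adjusted p = 0.2). The differences ran from -2.55 to -1.85, whereas the log2 range of the level was 4.25 for IL1B and 3.72 for IL1A. The SD of the difference depended on the processing, at 0.48 with a pseudocount of 0 and 0.71 with TPM over all rows. In replicate 1, where IL1A was below the pseudocount of 1, the log2(TPM + 1) difference was the least negative although the ratio was the lowest. With exon lengths from GENCODE 29 the mean difference was -1.02, still in the same direction. Of the TPM of the 5 ligands together, IL18 made up 99.1%, 66.1%, 73.3% and 72.1% in replicates 1 to 4.

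IL18 exceeded IL33 in 4 of 4 replicates, by 7.94 ± 0.53 (log2 scale, n = 4, exact permutation p = 0.13, adjusted p = 0.2). IL33 had 0 counts in replicates 2 to 4, and the exact 95% intervals of the ratio there began at 1114, 1421 and 1073. Against the floor of 3 counts for IL33 the ratios were 1371, 1748 and 1321, which are not lower limits. IL18 also exceeded IL18BP, a secreted protein that binds and neutralises interleukin-18, by 91.7-fold, 24.8-fold, 51.9-fold and 28.3-fold. That difference was 5.19 ± 0.83 (log2 scale, n = 4, exact permutation p = 0.13, adjusted p = 0.2).

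The accessory chain and the receptor kept the steadiest ratio of the 8 pairs. IL1RAP was above IL1R1 by 3.13-fold (2.91 to 3.36), 2.999-fold (2.62 to 3.44), 3.37-fold (2.84 to 4.03) and 2.85-fold (2.45 to 3.33) in replicates 1 to 4. The 4 intervals overlapped, and the mean difference was 1.45 ± 0.07 (log2 scale, n = 4, exact permutation p = 0.13, adjusted p = 0.2). The decoy and the signalling receptor did not keep a ratio. IL1R2 over IL1R1 was 0.0747 (0.0454 to 0.116), 0.867 (0.658 to 1.13), 1.72 (1.31 to 2.26) and 0.249 (0.140 to 0.413), so the decoy was lower than the signalling receptor in replicates 1 and 4, not separable from IL1R1 in replicate 2 and the higher in replicate 3. With exon lengths both of the latter calls changed, at ratios of 0.576 (0.437 to 0.751) in replicate 2 and 1.15 (0.868 to 1.502) in replicate 3, and without length correction the ratio was 0.497 (0.377 to 0.652) in replicate 3. The mean difference was -0.83 ± 1.31 (log2 scale, n = 4, exact permutation p = 0.375, adjusted p = 0.5), and -0.32 without replicate 1. IL36RN and IL36G differed by -0.04 ± 0.61 (log2 scale, n = 4, exact permutation p = 1, adjusted p = 1) on 2 to 21 counts per replicate. The antagonist was the lower of the pair in replicate 2, with a ratio to IL36G of 0.324 (0.155 to 0.667), and in replicates 1, 3 and 4 the ratio was above 1 with intervals that included 1.

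**Figure D2:**
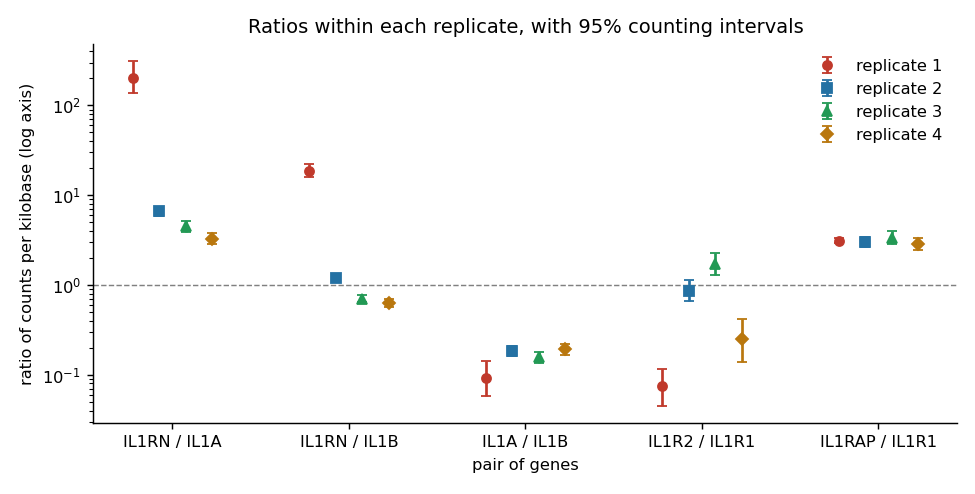
Ratios of counts per kilobase between pairs of members within each replicate (log axis), with exact 95% counting intervals as bars and a dashed line at equal levels. IL1RAP over IL1R1 lies between 2.85 and 3.37 in all 4 replicates, whereas IL1RN over IL1A ranges from 3.29 to 203.

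The spread over replicates was set beside that of all detected genes. In 3 of the 7 detected members, IL1B, IL1A and IL1R2, the highest replicate was over 4 times the lowest in TPM + 1, and 18.3% of all detected genes met the same criterion. Among replicates 2 to 4 alone, 0 of 7 members did so, beside 1.73% of detected genes. Replicate 1 was over 4-fold below every other replicate in 2 of 7 members, IL1B and IL1A, beside 4.41% of detected genes. No member was over 4-fold above every other replicate in replicate 1, beside 1.98% of detected genes. The median log2 range was 1.51 over the 7 members and 1.16 over all 12165 detected genes.

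The difference of replicate 1 from the mean of replicates 2 to 4 was -3.88 for IL1B, -3.32 for IL1A and -1.66 for IL1R2 on the log2(TPM + 1) scale. Of all detected genes, 1.04% had a lower difference than IL1B, 1.80% a lower one than IL1A and 9.63% a lower one than IL1R2. These directions held under each of the 3 other scalings and with exon lengths from GENCODE 29. With TPM over all rows, 90.7% of all detected genes were lower in replicate 1, so the sign alone tells little there. Under that scaling IL1B, IL1A and IL1R2 were at -4.88, -3.47 and -1.91. IL1RAP, IL1R1 and IL1RN differed by 0.42, 0.35 and 0.34, and these turned to -0.98, -0.84 and -1.16 with TPM scaled over all rows, when the median detected gene was at -1.27. Of the 7 differentiated keratinocyte markers, 6 were detected. Of these 6, 5 were higher in replicate 1 than the mean of the others and 1 was lower, beside 48.9% of all detected genes lower. Their differences ran from -0.17 for FLG to 6.49 for KRT1, and LOR was not detected. KRT1 passed the detection limit only through replicate 1, its mean over replicates 2 to 4 being 0.398 TPM. Its direction was therefore fixed by the limit. The next highest difference was 4.65 for IVL, which had a mean of 8.17 TPM over replicates 2 to 4. The sum of the 7 was 729.7 TPM in replicate 1 and 139.0, 78.6 and 103.2 TPM in the others, carried mainly by KRT10, IVL and KRT1. Of the 8 keratinocyte markers, 2 were lower in replicate 1. The median difference of these 8 was 0.85, against 2.70 for the detected differentiated markers. The GC content of the longest protein-coding transcript was 39.1% for IL1A, 45.7% for IL1B and 50.6% for IL1R2, and 42.3% for IL18, 49.9% for IL1RN, 44.2% for IL1R1 and 41.7% for IL1RAP, with a median of 49.1% over detected genes. The part of differentiation, GC content or library make-up in these differences was not tested, and with 1 such library they cannot be told apart.

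**Figure D3:**
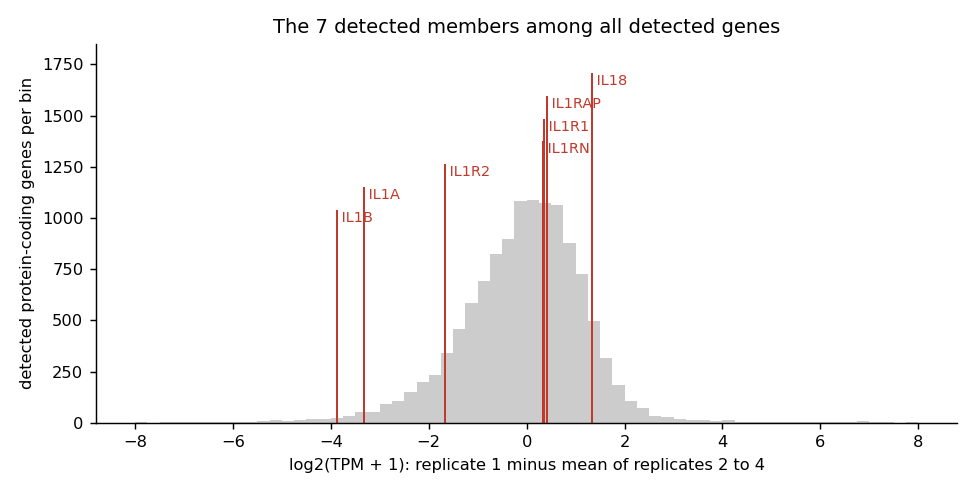
Difference of replicate 1 from the mean of replicates 2 to 4 on the log2(TPM + 1) scale for all 12165 detected protein-coding genes (grey histogram, bins on the horizontal axis and genes per bin on the vertical axis), with a red line for each of the 7 detected members. IL1B and IL1A lie in the low tail at -3.88 and -3.32, IL18 lies at 1.33, and IL1RN, IL1R1 and IL1RAP lie together near the centre.

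The profiles over the 4 replicates, each centred on its own mean, were compared between members by their Euclidean distance. IL1RAP and IL1R1 were the closest pair, at a distance of 0.12, followed by IL1B and IL1A at 0.52 and IL1RN and IL1RAP at 0.71. For the 3 members with the widest range, the nearest detected genes were also sought. Nearest to IL1B were the purinergic receptor gene P2RY11 (distance 0.15), the splicing factor gene SF3A2 (0.19) and the coronin gene CORO7 (0.26). P2RY11 and CORO7 overlap readthrough genes on their own strand, which leaves their counts uncertain. SF3A2 was at 12.8 TPM in replicate 1 and at 220.8, 169.9 and 149.3 TPM in the others. Nearest to IL1A were CNPY3-GNMT, itself a readthrough gene (0.16), MIDN (0.16) and FAM222B (0.17). Nearest to IL1R2 were CD68, which encodes a lysosomal glycoprotein (0.26), KLF4, which encodes a transcription factor of epithelial differentiation (0.29), and C19orf66, an interferon-inducible gene (0.33). KLF4 was at 13.9, 55.6, 50.1 and 17.3 TPM. These distances rest on 4 replicates and are a description.

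Of these genes, 2 groups lie side by side on chromosome 2. The cytokine cluster held 9 genes within 360.1 kb (chr2:113531492-113891593 in the positions of the files), in the order IL1A, IL1B, IL37, IL36G, IL36A, IL36B, IL36RN, IL1F10 and IL1RN. The genes at the ends, IL1A, IL1B and IL1RN, were detected, and the 6 between them were not. IL36A had no count in any replicate, and IL36B had 0, 1, 1 and 0 counts. IL37, whose product dampens inflammation, had 10, 0, 0 and 1 counts, and IL1F10 had 0, 3, 0 and 10. None of these 4 other ligands was detected. The receptor cluster held 6 genes within 460.7 kb (chr2:102608306-103069025), of which IL1R2, IL1R1, IL1RL2 and IL18R1 were detected and IL1RL1 and IL18RAP were not.

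**Figure D4:**
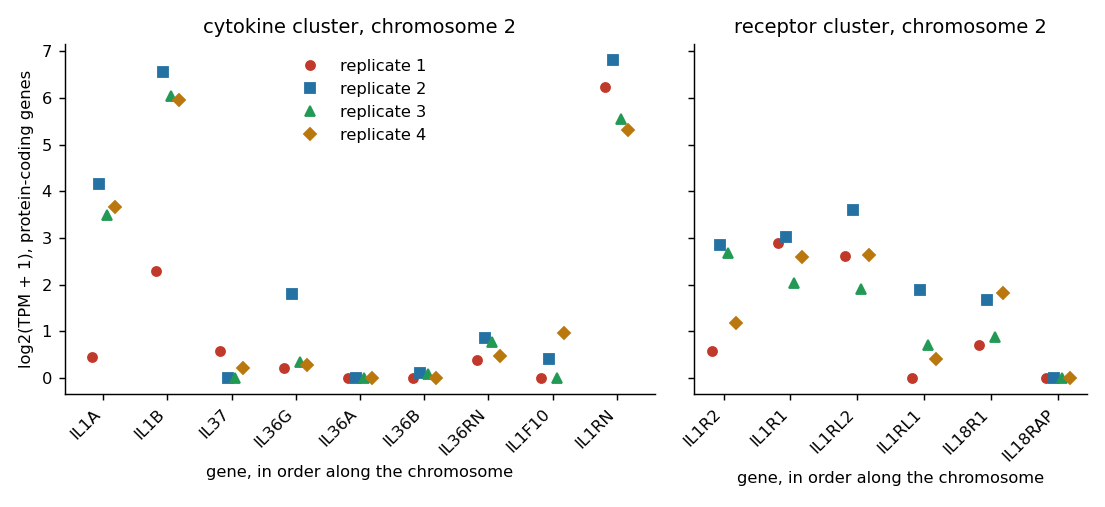
Levels as log2(TPM + 1) of the genes of the cytokine cluster (left, 9 genes) and the receptor cluster (right, 6 genes), in chromosomal order without scale along the horizontal axis and with 1 symbol per replicate. In the cytokine cluster IL1A, IL1B and IL1RN at the ends carry the signal, and the 6 genes between them have means below 1 TPM.

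Promoter sequences are shown for the agonists that were low in replicate 1 and for the antagonist beside them in the same cluster. They are RefSeq windows on GRCh38.p14 that run from 250 bases before to 50 bases after an annotated start, written along the strand of the gene, and their positions are not those of the deposited files. RefSeq windows were matched for 9 of the 10 members, 18 windows in all, and not for IL18. Capitals mark matches on either strand to TGANTCA (the AP-1 site), GAAANNGAAA (the interferon-stimulated response element) or TATAAA (the TATA box, TTTATA when on the other strand). The IL1A window is chr2:112784444-112784743 (minus strand) and the IL1B window is chr2:112836730-112837029 (minus strand). For IL1RN the upstream window is chr2:113117721-113118020 and the downstream one chr2:113127348-113127647 (both plus strand).
IL1A: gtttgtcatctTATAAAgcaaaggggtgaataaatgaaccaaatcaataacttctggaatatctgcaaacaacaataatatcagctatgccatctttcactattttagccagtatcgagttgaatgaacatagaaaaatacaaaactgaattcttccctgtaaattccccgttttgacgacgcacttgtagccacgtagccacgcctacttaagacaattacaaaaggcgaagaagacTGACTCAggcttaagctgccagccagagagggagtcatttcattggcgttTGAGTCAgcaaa
IL1B: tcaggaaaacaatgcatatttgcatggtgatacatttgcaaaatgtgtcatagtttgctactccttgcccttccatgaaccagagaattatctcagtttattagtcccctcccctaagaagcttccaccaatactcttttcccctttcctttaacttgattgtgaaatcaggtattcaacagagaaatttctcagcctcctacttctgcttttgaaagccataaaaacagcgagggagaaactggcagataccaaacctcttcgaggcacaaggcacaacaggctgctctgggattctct
IL1RN upstream: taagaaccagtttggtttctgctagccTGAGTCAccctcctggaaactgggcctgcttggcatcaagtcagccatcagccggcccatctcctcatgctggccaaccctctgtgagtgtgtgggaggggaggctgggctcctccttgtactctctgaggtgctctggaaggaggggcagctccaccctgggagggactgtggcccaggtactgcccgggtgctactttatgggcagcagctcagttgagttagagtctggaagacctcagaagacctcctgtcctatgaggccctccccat
IL1RN downstream: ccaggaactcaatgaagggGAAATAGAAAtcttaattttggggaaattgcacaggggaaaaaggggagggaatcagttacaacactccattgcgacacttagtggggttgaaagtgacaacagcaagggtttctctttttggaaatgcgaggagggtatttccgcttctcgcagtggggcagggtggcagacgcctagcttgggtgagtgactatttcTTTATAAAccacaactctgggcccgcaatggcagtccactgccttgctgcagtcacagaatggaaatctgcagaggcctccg
The IL1A window held TGACTCA from position -12 and TGAGTCA from position 38, counted from the start, and TATAAA from position -239. The upstream IL1RN window held TGAGTCA from position -223. The downstream IL1RN window held GAAATAGAAA from position -231 and TATAAA from position -30, overlapped by TTTATA from position -32. The IL1B window held none of these motifs and none of the NF-kappaB consensus, which says only that these letters are not in this window. Over all 35116 RefSeq windows of this length, the AP-1 motif was present in 7.71%, the NF-kappaB consensus in 11.3%, the interferon-stimulated response element in 3.57% and the TATA box in 11.5%. Over the 18 windows of the members, which overlap for IL1A and IL1RN, the counts were 3, 2, 2 and 4 in the same order. These counts hold the same sites more than once. Both IL1A windows held the same AP-1 sites, which lie at -105 and -55 from another annotated IL1A start. The IL1RN windows with the interferon-stimulated response element held the same match. The NF-kappaB matches lay at IL36RN and IL1R2. A match is a description of the letters and was not linked to binding or to the levels.

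The rest of the pathway was examined through 53 other genes grouped by role, of which 38 were detected (71.7%), beside 63.3% of all protein-coding genes. The counts of detected genes by role below stand beside the same 63.3%. In 7 of these 38 the highest replicate was over 4 times the lowest, or 18.4%, close to the 18.3% of all detected genes.

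Of the other receptors and binding proteins, 4 of 8 were detected. SIGIRR, a receptor that restrains interleukin-1 signalling, was the most abundant, at 32.4, 54.2, 41.9 and 59.2 TPM. IL18BP was at 5.61, 8.86, 3.98 and 6.66 TPM, and the interleukin-36 receptor IL1RL2 at 5.15, 11.2, 2.78 and 5.26 TPM. The interleukin-18 receptor chain IL18R1 was low, at 0.642, 2.18, 0.838 and 2.53 TPM, and its partner IL18RAP had no count in any replicate. The abundant ligand IL18 was thus measured beside 1 receptor chain near the detection limit and another without counts. IL1RL1, the receptor of interleukin-33, was at 0, 2.71, 0.623 and 0.322 TPM, and IL1RAPL1 and IL1RAPL2 stayed below 1 TPM in every replicate.

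Of the signalling genes, 12 of 13 were detected. The kinase IRAK1 had the highest mean (220.0 TPM), followed by the adaptor MYD88 (63.1 TPM) and the inhibitor TOLLIP (51.4 TPM). MYD88 was at 12.8, 93.4, 100.5 and 45.9 TPM, lowest in replicate 1. IRAK3, an inhibitory kinase known from myeloid cells, was not detected, at 1 to 5 counts. PELI2, a ubiquitin ligase named here after its values were seen, was at 28.0 TPM in replicate 1 against 0.739, 0.215 and 1.23. It was the 1 pathway gene in which replicate 1 was over 4-fold above every other, beside 1.98% of detected genes. Because PELI2 passed the detection limit only through replicate 1, with a mean of 0.727 TPM over replicates 2 to 4, this call is only a description.

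Of the genes of processing and release, 11 of 15 were detected. In none of these 11 did the range pass 4-fold, beside 18.3% of all detected genes, and with 11 genes this is a description. The proteases CAPN1 and CAPN2, of the calpain family that cleaves the interleukin-1 alpha precursor, had means of 574.0 and 267.7 TPM, and the inflammatory caspase CASP4 had 174.2 TPM. CASP1, which cleaves the precursors of interleukin-1 beta and interleukin-18 and is named here for that role, was at 35.9, 31.6 and 33.5 TPM in replicates 2 to 4 and somewhat higher in replicate 1. Its adaptor PYCARD, also named for its role, was at 171.1, 176.9, 173.0 and 170.0 TPM. With TPM over all rows both genes would be lowest in replicate 1, where protein-coding rows held 31.0% of TPM against 87.4% to 93.0% elsewhere. The inflammasome sensor NLRP3 had 0, 0, 3 and 1 counts, CASP5 had 1, 0, 0 and 0, and the neutrophil proteases CTSG and ELANE had none.

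Of the targets, genes that interleukin-1 is known to induce, 11 of 13 were detected. Their 3 highest means were those of LCN2, an iron-binding antimicrobial protein (325.4 TPM), NFKBIA, the inhibitor of NF-kappaB (297.1 TPM), and TNFAIP3, a further brake on that pathway (69.2 TPM). LCN2 was at 61.1 TPM in replicate 1 and at 345.3, 416.5 and 478.9 TPM in the others. It was the 1 target more than 4-fold below every other replicate in replicate 1, beside 4.41% of detected genes. TNFAIP3 was at 17.0, 141.4, 54.6 and 64.0 TPM. NFKBIA was at 372.1 TPM in replicate 1 and 239.2 to 304.4 TPM in the others, an order that turned with TPM over all rows (115.2 against 212.0 to 283.1 TPM). Replicate 1 was below the mean of the others in 8 of the 11 detected targets, beside 48.9% of all detected genes, and with TPM over all rows in 11 of 11, beside 90.7%. Of the 11, 5 had a range over 4-fold in TPM + 1 (IL6, CSF2, TNFAIP3, LCN2 and ICAM1), beside 18.3% of all detected genes. Among replicates 2 to 4 alone the ranges of these 5 were 1.39-fold to 2.77-fold. CXCL2 and DEFB4A were not detected.

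**Figure D5:**
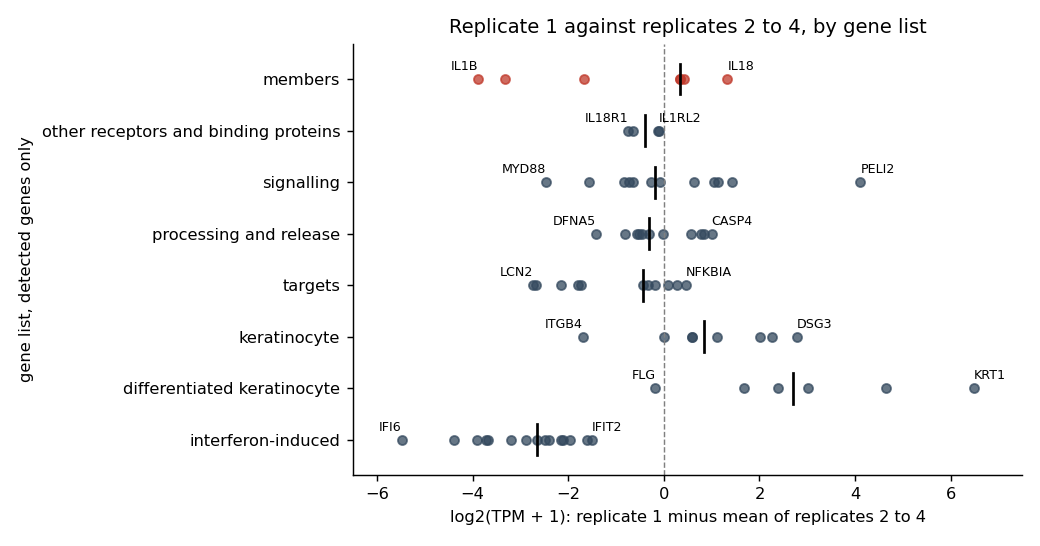
Difference of replicate 1 from the mean of replicates 2 to 4 on the log2(TPM + 1) scale for each detected gene (points) of 8 gene lists, with the median of a list as a vertical bar and the lowest and highest genes named. The members have a median of 0.34 with IL1B and IL1A far to the left, the targets a median of -0.44, the differentiated keratinocyte markers one of 2.70 and the interferon-induced genes one of -2.64. KRT1 and PELI2 were detected only through replicate 1.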

How the data were processed

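RNA-seq of total RNA from 4 untreated HaCaT samples was analysed, grouped and numbered by the labels. The authors deposited whole-number read counts per gene for each replicate, with gene lengths and positions, and beside them RPKM for replicates 1 and 2 and TPM for replicates 3 and 4. RPKM and TPM columns as deposited were not used because the unit differs between replicates. The submitters' processing notes name hg19, HISAT2, HISAT, TopHat2 and Bowtie2 without their roles. The counting program, annotation and strand setting are not given in the sources used here, so antisense and overlapping reads may be shared.

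TPM was computed over protein-coding rows from the deposited counts and lengths. Rows of other RNA classes were left out of the total because their share differed between replicates. Precision follows from total counts of 17056035 to 73082279. Detection required a mean above 1 TPM, log2 values used a pseudocount of 1, and the floor was 3 counts. Intervals are exact at 95%. The 8 pairs were tested with exact two-sided sign-flip permutation tests, adjusted by Benjamini-Hochberg. Pathway genes were named as the 3 highest means and the undetected genes of each list, and all genes of the ligand and receptor lists. Alternatives were other pseudocounts, lengths, scalings, detection limits and leaving out each replicate. Members and lists were chosen with earlier results of these data known. Range calls and profile distances were tested on simulated data with large planted changes in libraries of otherwise equal profile. Replicate 1 departs from that setting, so this checks the computation and not the calls made here. Computations ran in Python 3.11.15 with SciPy 1.17.1, pandas 2.3.3 and NumPy 2.4.6, and figures were drawn with matplotlib 3.10.9.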

Additional observations from a re-analysis of the deposited data

Results flagged for a closer look

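Of 18 sets of 4 values, the 10 levels and 8 differences, 3 had a sample far from the other 3 by Dixon's ratio of the gap to the range. Chance gives about 1 in 20 such sets. For IL18 the ratio was 0.906, with replicate 1 at 514.4 TPM and the others at 188.5 to 219.3 TPM. For IL36G it was 0.954, with replicate 2 at 2.48 TPM on 20 counts and the others at 0.170 to 0.275 TPM. For IL33 it was 1, with replicate 1 at 0.219 TPM on 15 counts and 0 counts in the others. Because 3 values at 0 and 1 above 0 always give a ratio of 1, this is no test, and the counting interval of replicate 1 (0.122 to 0.361 TPM) overlaps the upper limits in the others (0.145 to 0.197 TPM). The high value of IL18 in replicate 1 was not seen with TPM over all rows (159.2 TPM, against 175.3 to 194.3 TPM), and replicate 1 was sequenced to 73082279 counts against at most 19745170. The cause of the 3 values was not tested. IL1B and IL1A, lowest in replicate 1, had ratios of 0.643 and 0.594, under Dixon's critical value for 4 samples.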

How the results depend on the processing

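Of 87 alternatives for the 8 pairs, 82 kept the direction of the mean difference. The mean difference of IL1RN and IL1B was 0.76 and became -0.29 without replicate 1, with a range of -0.29 to 1.23 over the 4 fits that left out a replicate. That of IL36RN and IL36G was -0.04 and became 0.20 with a pseudocount of 0.1, 0.35 with a pseudocount of 0, 0.31 without length correction and 0.26 without replicate 2 (range -0.20 to 0.26). The cause was not tested. Leaving out replicates gave 2.12 to 3.50 for IL1RN minus IL1A, -2.41 to -2.18 for IL1A minus IL1B, -1.31 to -0.32 for IL1R2 minus IL1R1 and 1.43 to 1.48 for IL1RAP minus IL1R1. The number of members with a range over 4-fold was 3 of 7 beside 18.3% of detected genes, 4 beside 37.5% with TPM over all rows, and 0 beside 1.75% without replicate 1 (range 0 to 3), so the count moved with the share over all genes. The number of members detected was 7 whichever replicate was left out, 8 when over 3 counts were required in every replicate (65.7% of protein-coding genes), 9 above 0.1 TPM (74.4%) and 10 with any count (85.8%). Of 80 alternatives for the levels, 79 moved the mean by less than 1 SD over the 4 replicates, and the exception was IL1A with exon lengths, at 21.1 TPM. That SD includes replicate 1 and is a wide limit. IL18 moved from 282.3 to 177.4 TPM with TPM over all rows and stayed within its SD of 155.3 TPM. For IL36G and IL33 the SD exceeded the mean, so no fall could pass it. A pseudocount of 0 could not be used for IL18 minus IL33 because IL33 had replicates at 0. No paired analysis was possible because there was a single group. IL36G and IL36RN rested on 2 to 21 counts per replicate, which makes their ratios imprecise, and 4 replicates cannot give an exact p below 0.13.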
